A study of Homo sapiens with 12 samples.

Results

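The 10 genes described here encode the enzymes and targets of an actin switch: the slingshot phosphatases SSH1, SSH2 and SSH3, the phosphatase PDXP (chronophin), the LIM kinases LIMK1 and LIMK2, the actin-severing proteins CFL1, CFL2 and DSTN, and the related protein COTL1. All 10 symbols matched a row of the deposited table of 19219 genes. The set was selected on measured values, the higher mean densities of SSH1 and COTL1 in knockout cells with cycloheximide, so that contrast describes the choice and carries no test. Cofilins and destrin (also called ADF) bind actin filaments, sever them and speed their turnover. LIM kinases phosphorylate them near the amino end, which stops them binding actin, and slingshot phosphatases and PDXP remove that phosphate. COTL1, coactosin-like protein, shares the actin-depolymerizing-factor fold and binds filaments without severing them.

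Ribosome footprints were measured in HEK293 cells, a human line from embryonic kidney, with a CRISPR-Cas9 knockout of CNBP or wild type. CNBP is a zinc-finger protein that binds G-rich RNA, and the series asks whether it promotes translation of its targets. The groups were CNBP knockout with cycloheximide (3 libraries), wild type with cycloheximide (5), CNBP knockout with harringtonine and cycloheximide (1) and wild type with harringtonine and cycloheximide (3). All groups thus received cycloheximide, which freezes elongating ribosomes, and harringtonine holds back newly started ribosomes at start codons while those ahead run off. Both knockout columns carry the tag KO6 in the header, and the sources used here do not give how many clones were used.

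The table held the authors' mean per group and no value per library, so no replicate spread could be computed and no test between groups was run. Densities are given on the deposited scale, whose absolute unit is not stated. They appear to be divided by a gene length that mostly differs from the listed one, so levels of different genes can be set against each other only roughly. Ratios are log2 values minus the median of the 6045 genes compared. Before that centring the knockout ratios had medians of -0.44 (cycloheximide) and -0.28 (harringtonine), and the drug ratios had medians of 0.28 (knockout) and 0.11 (wild type). A gene is called higher or lower at 2-fold. Intervals are 95% counting intervals on reads estimated from density and length; they are rough and leave out differences between libraries. The estimated totals were 848679 reads for knockout with cycloheximide, 2142598 for wild type with cycloheximide, 400913 for knockout with harringtonine and 1133810 for wild type with harringtonine. Here and below, read numbers are effective numbers for the mean of a group, and not counts of sequenced reads. The HEK293 genes KRT8 and VIM were present (0.641 and 1.43 in knockout, 0.755 and 2.36 in wild type, with cycloheximide), whereas the blood-cell genes PTPRC and CD3E were listed at 0 in every group. HBB, of red cells, was listed at 0 in knockout and at 0.0444 in wild type with cycloheximide, and at 0.134 in knockout and 0.0599 in wild type with harringtonine.

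CNBP, the targeted gene, had footprints in the knockout libraries, with a mean density of 2.20 in knockout and 3.73 in wild type with cycloheximide, and 2.36 in knockout and 3.27 in wild type with harringtonine. Relative to the median gene its knockout ratios were -0.32 and -0.19.

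Of the 10 genes, 9 had all 4 means above 0 and 7 also lay above the median level of 0.114, the geometric mean density of the 4 groups. PDXP, at 0.116, was just inside that limit and SSH2, at 0.100, just outside; LIMK2 was at 0.067. Ratios of SSH2 and LIMK2 are given without counting them among the genes compared. SSH2, on the minus strand, overlaps EFCAB5 on the other strand at its start. Annotated pseudogenes carry the names of LIMK2 (1) and COTL1 (2) in GRCh38.p14.

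The pathway spanned over 2 orders of magnitude in ribosome density. In wild type with cycloheximide CFL1, the non-muscle cofilin, was highest at 1.70, followed by SSH1 at 1.28 and DSTN at 0.618. CFL2, the cofilin known from muscle, stood at 0.435 and COTL1 at 0.329, and their counting intervals overlapped. PDXP (0.193), LIMK1 (0.117), SSH2 (0.0835) and LIMK2 (0.0803) followed, each with an interval that overlapped the next. SSH1 thus had the highest density of the phosphatases and kinases of the set, and 96.6% of all usable genes were lower. In knockout cells with cycloheximide the order began with SSH1 at 13.0, CFL1 at 1.21 and COTL1 at 0.641, with DSTN at 0.288. From CFL2 (0.125) through PDXP (0.120), LIMK1 (0.119) and SSH2 (0.0752) to LIMK2 (0.0508), neighbours overlapped again.

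**Figure D1:**
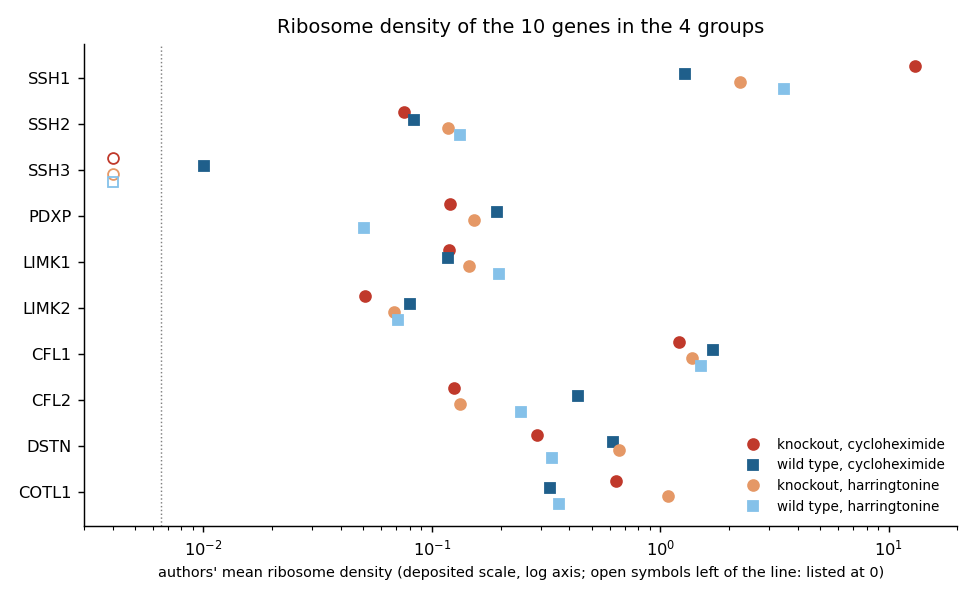
Authors' mean ribosome density of each gene on a log axis, with circles for knockout and squares for wild type, dark for cycloheximide and light for harringtonine. SSH1 reaches 13.0 in knockout with cycloheximide, and SSH3 is listed at 0 in all groups but wild type with cycloheximide.

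SSH1 (ENSG00000084112, hg19 chromosome 12, 109176466 to 109251366, minus strand), the slingshot phosphatase that dephosphorylates cofilin, had a mean density of 13.0 in knockout and 1.28 in wild type with cycloheximide. With harringtonine the means were 2.24 in knockout and 3.49 in wild type. The knockout mean was therefore the higher one with cycloheximide and the lower one with harringtonine. These densities correspond to about 5009 reads in knockout and 1123 in wild type with cycloheximide, and 362 in knockout and 1086 in wild type with harringtonine, the most of any gene in the set. Relative to the median gene, the knockout ratio in log2 was 3.79 with cycloheximide (interval 3.69 to 3.88), and 1 of the 6045 genes had a higher one. With harringtonine, a contrast that the choice did not name, it was -0.36 (interval -0.53 to -0.18), where 27.8% of genes were lower. Earlier results of these data were known at the choice, and the knockout value with harringtonine comes from 1 library.

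The drug ratio of SSH1 had opposite signs in the 2 genotypes. Its log2 ratio of harringtonine over cycloheximide was -2.81 in knockout (interval -2.97 to -2.66), where 0.149% of genes compared were lower. In wild type it was 1.33 (interval 1.21 to 1.46), where 1.77% were higher. The difference between its knockout ratios, harringtonine minus cycloheximide, was -4.15 (interval -4.35 to -3.95), with 0.182% of genes lower. These comparisons share the same 4 means, so they restate the cycloheximide values from other sides.

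The other slingshot genes were far lower. SSH2 (ENSG00000141298, hg19 chromosome 17, 27952956 to 28257294, minus strand) had densities of 0.0752 in knockout and 0.0835 in wild type with cycloheximide, and 0.118 in knockout and 0.133 in wild type when harringtonine was present. Its relative knockout ratios were 0.29 (interval -0.35 to 0.90) and 0.11 (-0.71 to 0.89), both with intervals that include 0, and -0.15 and -0.18 without centring. SSH3 (ENSG00000172830, hg19 chromosome 11, 67070919 to 67080078, plus strand) had a density of 0.0101 in wild type with cycloheximide, about 3 reads, and was listed at 0 in the other groups. At 3 reads, the limit taken for a count of 0, the knockout with cycloheximide could hold a density of up to 0.0223, more than the wild-type value, so a difference in SSH3 was not detectable at this depth.

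PDXP (ENSG00000241360, hg19 chromosome 22, 38054734 to 38062941, plus strand), a haloacid-dehalogenase phosphatase that also removes phosphate from cofilin and from vitamin B6, rested on few reads. Its means were 0.120 in knockout and 0.193 in wild type with cycloheximide, and 0.153 in knockout and 0.0507 in wild type with harringtonine. The last value stands for about 4 reads. Its relative knockout ratio was -0.25 with cycloheximide (interval -1.37 to 0.75) and 1.88 with harringtonine (interval -0.25 to 4.24), past 2-fold but with an interval that includes 0. Nearly all of PDXP lies within SH3BP1 on the same strand, so reads of the 2 genes may be shared. SH3BP1 had a density of 0.100 in knockout and 0.039 in wild type with harringtonine, a relative ratio of 1.64, and of 0.082 in knockout and 0.052 in wild type with cycloheximide, a ratio of 1.09.

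The LIM kinases were low in every group, and neither was past 2-fold in any comparison. LIMK1 (ENSG00000106683, hg19 chromosome 7, 73497263 to 73536855, plus strand) had means of 0.119 in knockout and 0.117 in wild type with cycloheximide, and 0.145 in knockout and 0.197 in wild type when harringtonine was present. Its relative knockout ratios were 0.46 (interval -0.43 to 1.29) and -0.15 (-1.42 to 0.99). LIMK2 (ENSG00000182541, hg19 chromosome 22, 31608225 to 31676066, plus strand) had means of 0.0508 in knockout and 0.0803 in wild type with cycloheximide, and 0.0685 in knockout and 0.0712 in wild type with harringtonine. Its ratios were -0.22 (interval -1.52 to 0.92) and 0.23 (-1.73 to 1.96). The widths of these intervals leave room for changes past 2-fold in both kinases.

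In a ratio between genes of the same group, a factor common to that group's mean cancels, although the weight of each library within the mean does not, and its size also depends on the lengths used. The summed density of the 3 slingshot genes over that of the 2 LIM kinases was 77.2 in knockout and 6.97 in wild type with cycloheximide. With harringtonine it was 11.0 in knockout and 13.5 in wild type. SSH1 alone made up 99.4% of the slingshot density in knockout and 93.2% in wild type with cycloheximide. Without SSH1 the ratio was 0.444 in knockout and 0.474 in wild type with cycloheximide, and 0.552 in knockout and 0.498 in wild type with harringtonine. The high value in knockout with cycloheximide thus came from SSH1, which was chosen for its value there. The ratios without SSH1 carry no interval and rest on few reads. In knockout with harringtonine these were about 21 for SSH2, 9 for LIMK1 and 5 for LIMK2.

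CFL1 (ENSG00000172757, hg19 chromosome 11, 65590493 to 65629497, minus strand), the main target of the switch outside muscle, stayed near the median gene in each comparison. Its means were 1.21 in knockout and 1.70 in wild type with cycloheximide, and 1.38 in knockout and 1.52 in wild type with harringtonine. Its relative knockout ratios were -0.05 (interval -0.38 to 0.28) and 0.15 (-0.37 to 0.66). MUS81 and SNX32 overlap CFL1 on the other strand, at densities of at most 0.202, and 8 annotated pseudogenes carry the CFL1 name in GRCh38.p14, so some of its reads could have been split or shared. Relative to beta-actin (ACTB), its binding partner, CFL1 stood at 0.154 in knockout and 0.148 in wild type with cycloheximide, and at 0.144 in knockout and 0.147 in wild type with harringtonine. This ratio to ACTB was chosen after the values were seen.

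CFL2 (ENSG00000165410, hg19 chromosome 14, 35179593 to 35184029, minus strand) had fewer footprints in the knockout. Its means were 0.125 in knockout and 0.435 in wild type with cycloheximide, and 0.133 in knockout and 0.247 in wild type with harringtonine. Both knockout means were lower than both wild-type means. The relative ratio with cycloheximide was -1.36 (interval -2.16 to -0.64), and 1.16% of genes compared were lower. With harringtonine it was -0.60 (interval -1.95 to 0.57), on about 8 reads in knockout and 28 in wild type, so the interval includes 0.

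DSTN (ENSG00000125868, hg19 chromosome 20, 17550508 to 17590564, plus strand), destrin, which depolymerizes filaments and binds actin monomers, went opposite ways with the 2 treatments. Its means were 0.288 in knockout and 0.618 in wild type with cycloheximide, and 0.658 in knockout and 0.337 in wild type with harringtonine. The relative knockout ratio was -0.66 with cycloheximide (interval -1.15 to -0.20) and 1.25 with harringtonine (interval 0.62 to 1.88), where 3.41% of genes were higher. The difference between these ratios was 1.90 (interval 1.15 to 2.65), with 1.46% of genes higher. Harringtonine over cycloheximide was 0.92 in knockout (interval 0.30 to 1.54) and -0.99 in wild type (interval -1.48 to -0.52). These ratios share the same 4 means, and the knockout mean with harringtonine comes from 1 library, about 45 reads. DSTN has 4 annotated pseudogenes of its name in GRCh38.p14, so its count is open to reads of near copies.

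Within the cofilin and ADF family, CFL1 made up 74.6% of the summed density in knockout and 61.8% in wild type with cycloheximide. CFL2 took 7.67% in knockout and 15.8% in wild type, and with harringtonine 6.14% in knockout and 11.8% in wild type. The share of DSTN was 17.7% in knockout and 22.4% in wild type with cycloheximide, but 30.3% in knockout and 16.1% in wild type with harringtonine. CFL1 with harringtonine made up 63.6% in knockout and 72.2% in wild type. The share of CFL2 was thus smaller in knockout with both treatments, while the direction of the CFL1 and DSTN shares depended on the treatment. These shares carry no interval, and that of CFL2 with harringtonine rests on about 8 reads in knockout and 28 in wild type. A share also moves when the other genes of the sum move.

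**Figure D2:**
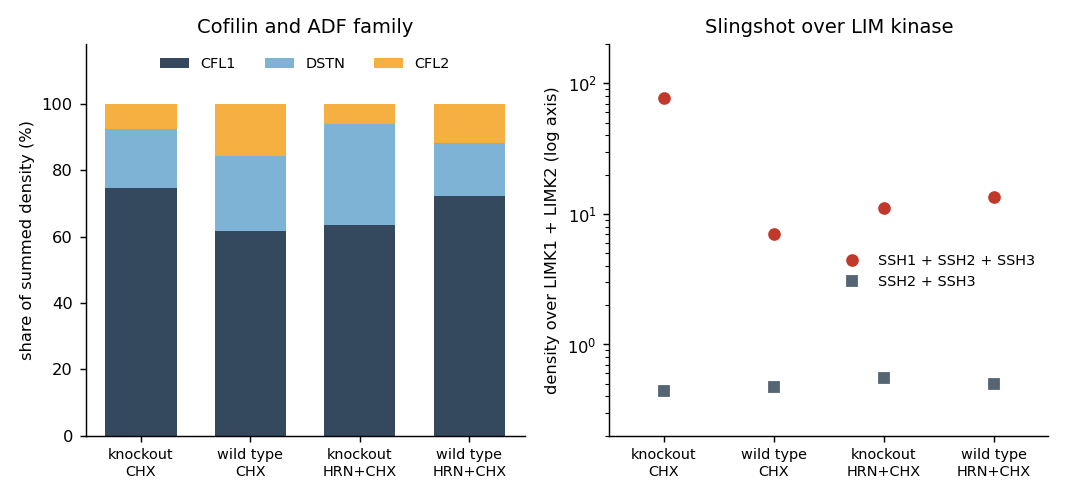
Left, the share in percent of CFL1, DSTN and CFL2 in their summed density, and right, slingshot density over LIMK1 plus LIMK2 on a log axis, for each group (CHX, cycloheximide; HRN, harringtonine). With SSH1 the ratio is 77.2 in knockout with cycloheximide and between 6.97 and 13.5 elsewhere; without it all 4 values lie between 0.444 and 0.552.

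COTL1 (ENSG00000103187, hg19 chromosome 16, 84599200 to 84651683, minus strand) had more footprints in the knockout with both treatments. Its means were 0.641 in knockout and 0.329 in wild type with cycloheximide, and 1.08 in knockout and 0.361 in wild type with harringtonine. Both knockout means exceeded both wild-type means, but the one with cycloheximide was chosen for being high. The wild-type means with and without harringtonine were close. The relative ratio with cycloheximide was 1.41 (interval 1.09 to 1.73), and 0.96 on the deposited scale, just under 2-fold. With harringtonine it was 1.87 (interval 1.42 to 2.32), where 0.827% of genes compared were higher. The choice named only the cycloheximide contrast, but earlier results of these data were known. The knockout value with harringtonine comes from 1 library. The difference between the ratios was 0.45 (interval -0.08 to 0.99). COTL1 over the summed cofilin and ADF density was 0.395 in knockout and 0.119 in wild type with cycloheximide, and 0.497 in knockout and 0.172 in wild type with harringtonine. These ratios carry no interval, and those with cycloheximide use the means of the choice again.

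**Figure D3:**
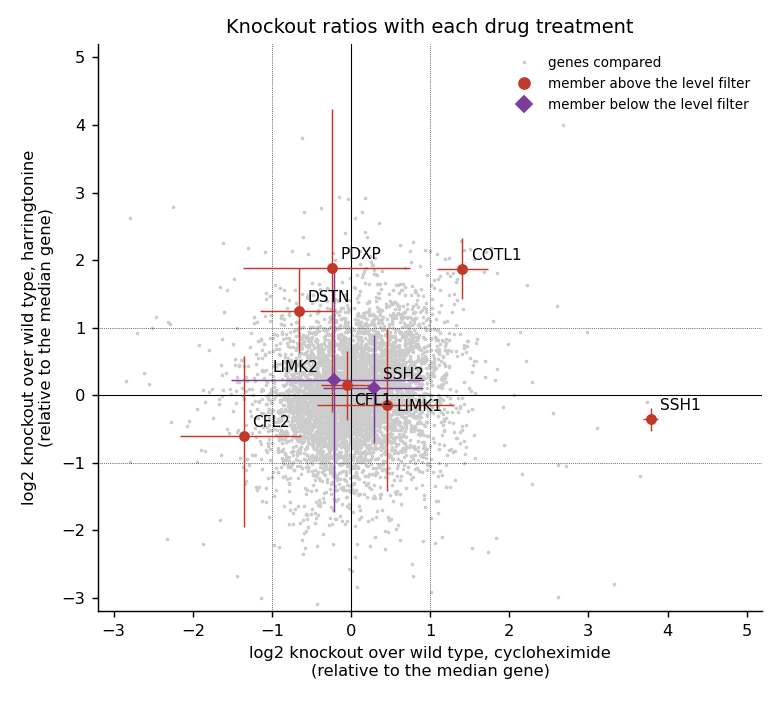
Relative log2 knockout ratio with cycloheximide (x) and with harringtonine (y), where bars are rough 95% counting intervals, grey points the genes compared, dotted lines 2-fold, and 14 genes lie beyond the axes. COTL1 is past 2-fold on both axes, SSH1 at 3.79 and -0.36, and DSTN at -0.66 and 1.25.

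Counted against the background, 2 of the 7 genes compared were at least 2-fold higher in knockout with cycloheximide (SSH1 and COTL1) and 1 was lower (CFL2). Over all 6045 genes 4.43% were higher and 3.24% lower, and since this contrast chose the set nothing is read from the count. With harringtonine 3 of 7 were higher (PDXP, COTL1 and DSTN) and 0 lower, where 6.72% and 6.58% of all genes were; for COTL1 and DSTN the interval lay above 0. For harringtonine over cycloheximide, 0 were higher and 1 lower (SSH1) in knockout, against 5.51% and 6.82% of all genes. In wild type 1 was higher (SSH1) and 1 lower (PDXP), against 3.41% and 3.31%. The difference between knockout ratios was past 2-fold upward for PDXP and DSTN and downward for SSH1, against 9.25% and 10.9% of all genes. For PDXP this difference was 2.12 (interval 0.005 to 4.23) and the drug ratio in wild type -2.04 (interval -4.08 to -0.53). Both use its wild-type mean with harringtonine, about 4 reads, and with reads halved both intervals include 0. The median of the 7 genes was -0.05 with cycloheximide and 0.15 with harringtonine, against 0 by construction for all genes.

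**Figure D4:**
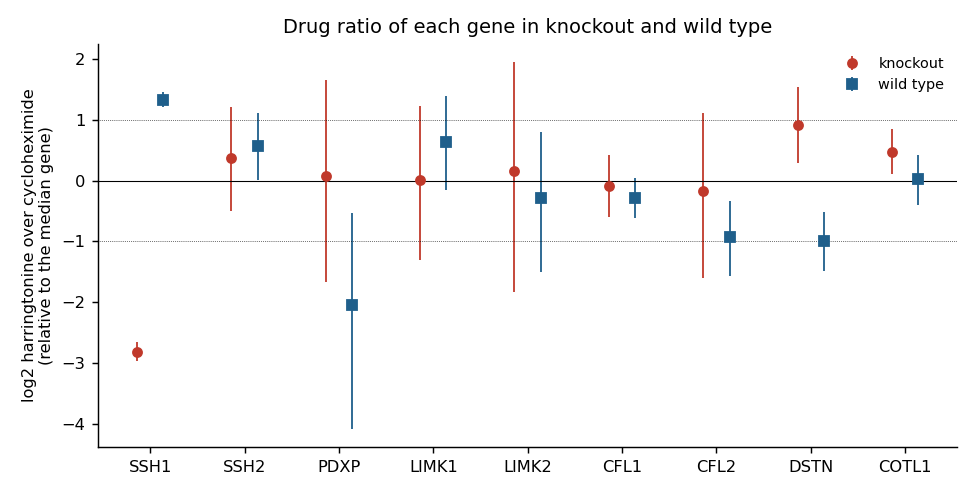
Relative log2 ratio of harringtonine over cycloheximide for 9 genes, with knockout as circles left of wild type as squares, bars for rough 95% counting intervals and dotted lines at 2-fold. SSH1 stands at -2.81 in knockout and 1.33 in wild type, and DSTN at 0.92 in knockout and -0.99 in wild type.

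The authors' deposited table also has columns named TE, which the header does not expand. Translational efficiency commonly means footprints set against mRNA. In every one of the 12091 genes with all 4 means above 0, the deposited ratio and the TE value differed by a term that was the same with both treatments within 1e-06, and what the term holds is not stated. With the sign turned to knockout over wild type, the authors' deposited table gives SSH1 a TE of 3.63 with cycloheximide and -0.35 with harringtonine, and COTL1 0.80 and 1.42. It gives CFL2 -1.19 and -0.27, DSTN -1.10 and 0.97, CFL1 -0.55 and -0.19, and PDXP -0.80 and 1.49. The medians over the genes compared were -0.45 and -0.28 on this uncentred scale. The term itself, knockout over wild type, was -0.29 for SSH1 and -0.61 for CFL2, where 6.78% and 0.860% of genes compared had a lower term. For COTL1 it was 0.16, for DSTN below 0.01 and for CFL1 0.06. SSH1 with cycloheximide and COTL1 with both treatments lay above the median gene with and without the term. The cycloheximide values are those of the choice. Over the genes compared the 5th and 95th percentiles of the term were -0.328 and 0.296. Beside the SSH1 ratio with cycloheximide that is small, so nothing is read from its place above the median. With harringtonine, SSH1 at -0.35 and CFL2 at -0.27 both came to lie close to the median of -0.28 once the term was taken off. CFL2 with cycloheximide, at -1.19, stayed below the median of -0.45, by less than before.

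The wider actin pathway was described from 3 lists. Of the upstream kinases, GTPases, 14-3-3 proteins and phosphatases, 18 of 25 genes were compared. With cycloheximide 0 of them were at least 2-fold higher in knockout and 1 lower, the endosomal GTPase RHOB at -1.03 (interval -2.25 to 0.01), and the median was -0.26. With harringtonine 2 were higher (RHOB and the kinase ROCK1, which activates LIM kinases) and 1 lower (PPP3CA, a catalytic subunit of calcineurin, which activates slingshot), with a median of 0.09. RHOB stood at 1.09 (interval -0.30 to 2.47, which includes 0), ROCK1 at 1.20 (0.46 to 1.95) and PPP3CA at -1.04 (-2.14 to -0.08). CDC42, a GTPase upstream of the PAK kinases, had means of 1.14 in knockout and 2.21 in wild type with cycloheximide, a ratio of -0.52 (interval -0.82 to -0.22), and 0.23 with harringtonine. The 14-3-3 proteins YWHAE and YWHAZ, of a family that binds phosphorylated slingshot and cofilin, stood at -0.45 and -0.43 with cycloheximide. Their ratios with harringtonine were 0.12 for YWHAE and 0.32 for YWHAZ. Such ratios depend on the genes used for centring, and with cycloheximide the median of dense genes was lower. Centred on genes above a density of 1, CFL1 with cycloheximide moved from -0.05 to 0.19 and SSH1 from 3.79 to 4.02. The counts of this list lie near the background: of all genes compared 4.43% were higher and 3.24% lower with cycloheximide, and 6.72% and 6.58% with harringtonine.

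Of the cofilin cofactors and other disassembly proteins, 8 of 15 were compared, with a median of -0.53 with cycloheximide and -0.20 with harringtonine. TWF1 (twinfilin, another protein of the actin-depolymerizing-factor fold) was the only call with cycloheximide, where 3.24% of all genes were lower. It had means of 0.124 in knockout and 0.348 in wild type, a ratio of -1.05 (interval -1.84 to -0.33), and 0.00 with harringtonine. CAP1, which recycles cofilin-bound actin monomers, was -0.67 (interval -1.05 to -0.30) and -0.28, and GMFG, which debranches filaments, 0.87 (interval -0.30 to 1.97) and 0.53. With harringtonine WDR1, which helps cofilin disassemble filaments, and the coronin CORO1B were at least 2-fold lower, at -1.18 (interval -2.34 to -0.18) and -1.41 (interval -4.61 to 0.75, which includes 0), against 6.58% of all genes.

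Of the actins and the genes for monomer binding, nucleation, elongation and capping, 18 of 24 were compared. ACTB had means of 7.88 in knockout and 11.5 in wild type with cycloheximide, a ratio of -0.10 (interval -0.21 to 0.02), and ACTG1 had 11.4 in knockout and 15.5 in wild type, a ratio of 0.00 (-0.09 to 0.10). With harringtonine they stood at 0.18 and -0.41. The Arp2/3 subunit ACTR2 was -0.57 (interval -0.88 to -0.28) with cycloheximide and 0.12 with harringtonine, the capping protein CAPZA1 -0.53 (-0.95 to -0.13) and 0.72, and the formin DIAPH1 0.60 (0.12 to 1.07) and -0.05. The single call each way was TMSB4X, thymosin beta 4, a monomer-sequestering peptide, lower at -1.09 with cycloheximide (interval -2.21 to -0.13) and higher at 2.12 with harringtonine (0.74 to 3.61). Of all genes, 3.24% and 6.72% were called in those directions, so a single gene of 18 is close to the background. The list medians were -0.09 and 0.07. The highest value of the 3 lists with cycloheximide was 0.87.

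**Figure D5:**
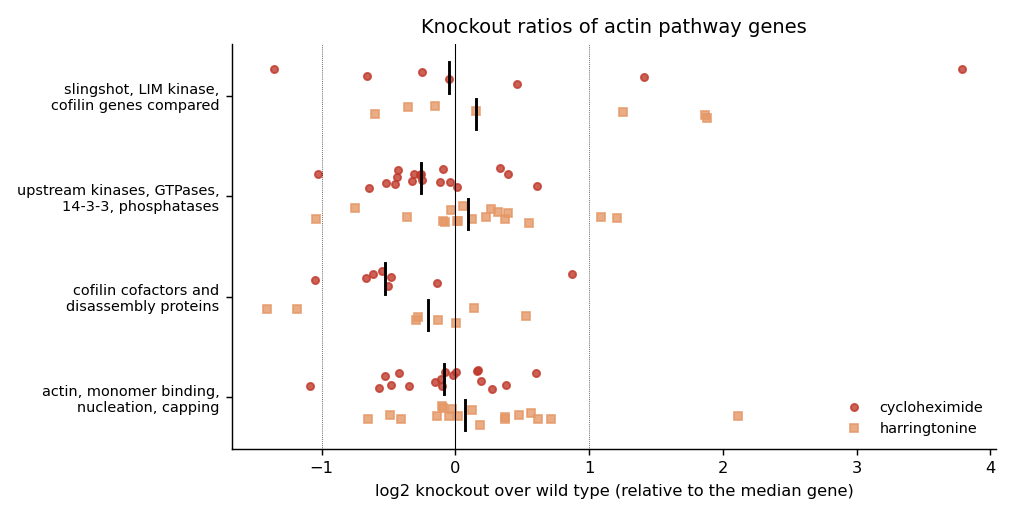
Relative log2 knockout ratio for the 7 genes compared of the set and for 3 actin pathway lists, with circles for cycloheximide, squares for harringtonine, black lines for medians and dotted lines at 2-fold. SSH1 at 3.79 lies to the right of every other point, and the medians lie between -0.53 and 0.15.

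Few genes had a pattern like that of SSH1, but the distance used includes the cycloheximide ratio for which it was chosen. A gene chosen for an extreme value has few genes near it, so this restates the choice in part. Among the other 2399 genes with at least 20 estimated reads in every group, likeness was the distance between the differences of the 4 centred log2 means. Only C11orf95 lay within a distance of 1, at 0.68, with means of 0.939 in knockout and 0.148 in wild type with cycloheximide, and 0.255 in knockout and 0.435 in wild type with harringtonine. TMC5 followed at 1.24, NEURL1 at 1.57, MLLT1 at 1.65 and NUDT3 at 2.21. In all 5, harringtonine over cycloheximide was below 0 in knockout and above 0 in wild type, as distance to SSH1 would select. For COTL1, 16 genes lay within 1, the nearest being ZKSCAN1 (0.43), LMO4 (0.59), TMPRSS4 (0.64), CEP152 (0.64) and the keratin KRT19 (0.66). KRT19 had means of 1.27 in knockout and 0.530 in wild type with cycloheximide, and 1.45 in knockout and 0.405 in wild type with harringtonine.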

How the data were processed

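The submitters' processing notes name TopHat and the hg19 build; the sources used here do not say how reads were assigned to genes. The authors deposited 1 table with a mean ribosome density per group (a signal at or above 0), the log2 ratio of wild type over knockout, and TE. Per the file headers it carries no column per library, so the planned linear model could not be run and values are described. Nothing in the labels says that libraries came from separate cultures. Set aside were 918 rows without a knockout value, 290 on alternate or patch sequences and 175 whose ratio was not that of the means (some overlap), which left 18043 genes, 12091 with all means above 0.

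Density times the longest transcript length repeats at low values. The repeated steps gave 3, 5, 1 and 3 libraries, a number set by the labels, and the mean step gave estimated reads. Within a group the steps differed by up to 2.76-fold, so these reads are effective numbers. In the knockout with harringtonine 7.46% of 12981 products were whole multiples within 0.01, so the divisor was mostly another length and read numbers are rough. Ratio intervals are Clopper-Pearson, density intervals Poisson, and those of differences a normal approximation. They cover counting error only: without molecular identifiers, PCR copies count as separate reads. The calculations were tried on simulated counts divided by the longest transcript length. The other divisor was absent there, so the trial does not show how well reads were estimated in these data.

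The members and lists were chosen with earlier results of these data known. Named were all 10 members, the 3 genes per list with the largest ratio over counting error with cycloheximide, ACTB and ACTG1, and the 5 genes nearest to SSH1 and to COTL1. List genes past 2-fold and overlapping genes were picked once their values were known. Python 3.11.15, numpy 2.4.6, pandas 2.3.3 and scipy 1.17.1 were used.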

Additional observations from a re-analysis of the deposited data

How the results depend on the processing

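No paired analysis was possible because the columns carry group means and no replicate numbers; for the same reason leaving out replicates was not run. Counts below are higher then lower, in the order knockout over wild type with cycloheximide, the same with harringtonine, harringtonine over cycloheximide in knockout, the same in wild type, and the difference between knockout ratios. For all genes they were 268 and 196, 406 and 398, 333 and 412, 206 and 200, 559 and 656. Without centring they were 59 and 844, 190 and 757, 646 and 204, 270 and 135, 779 and 480. With a pseudocount of 1 they were 9 and 3, 5 and 25, 12 and 8, 38 and 4, 14 and 40. Above a density of 1 they were 39 and 2, 23 and 22, 12 and 18, 39 and 20, 25 and 46. Without a level filter they were 979 and 989, 1497 and 1419, 1402 and 1461, 840 and 904, 1896 and 1939. At 1.5-fold they were 956 and 776, 1077 and 1033, 933 and 1008, 676 and 750, 1214 and 1310. Upper-quartile scaling moved none by over 1.5 times.

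Among the members the main counts were 2 and 1, 3 and 0, 0 and 1, 1 and 1, 2 and 1. They became 1 and 2, 2 and 0, 1 and 1, 1 and 1, 2 and 1 without centring; 1 and 0, 0 and 0, 0 and 1, 0 and 0, 0 and 1 with a pseudocount; 1 and 0, 0 and 0, 0 and 1, 1 and 0, 0 and 1 above a density of 1; and 2 and 2, 3 and 1, 1 and 1, 2 and 3, 3 and 2 at 1.5-fold. Upper-quartile scaling gave 2 lower for the drug in wild type. No called member ratio changed sign in any of these settings. With a pseudocount of 1, SSH1 with cycloheximide was 2.70, COTL1 0.39 with cycloheximide and 0.67 with harringtonine, CFL2 -0.27 and DSTN 0.37. Of the 200 member ratios recomputed, 18 moved beyond their counting interval. With reads halved, an alternative chosen after seeing the data, the intervals of 4, 3, 2, 3 and 2 members lay off 0, against 4, 3, 3, 4 and 3. Depth limits SSH3, PDXP and LIMK2 most.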

Other observations

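SSH1 and COTL1 were chosen for high ratios with cycloheximide, where 99.97% and 98.8% of genes compared were lower. The genes beside them on the chromosome were lower as well, as almost any gene would be, and a regional effect was not tested. The table holds 1 compared gene within 200 kb of SSH1, the coronin CORO1C, at -0.13 with cycloheximide and 0.14 with harringtonine. Within 200 kb of COTL1 it holds USP10, a deubiquitinase, at -0.98 and 0.12. CFL2 has 3 compared neighbours, BAZ1A, SNX6 and EAPP, between -0.83 and 0.13 with cycloheximide.

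TMSB4X and RHOB had drug ratios with signs opposite to those of SSH1. For harringtonine over cycloheximide TMSB4X was 1.44 in knockout (interval 0.17 to 2.76) and -1.76 in wild type (interval -3.07 to -0.67). RHOB was 1.17 in knockout (interval -0.29 to 2.66) and -0.94 in wild type (interval -2.02 to 0.01), and both of its intervals include 0. DSTN, at 0.92 in knockout and -0.99 in wild type, had the same signs. RHOB and TMSB4X were picked once their values were known, and each knockout value with harringtonine comes from 1 library.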
